A study of Homo sapiens with 2 samples.

Results

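Caspases and death receptors are described here through 8 genes in DLD1, a human colorectal adenocarcinoma cell line. They are the death receptors FAS, TNFRSF10A and TNFRSF10B, the inhibitor CFLAR, and the caspases CASP8, CASP10, CASP9 and CASP6. The genes were picked by their symbols from the 52402 symbols of the deposited count tables, and 8 of 8 were among the 12644 genes that were compared, those with a mean level of 1 CPM or more (CPM, a count scaled to a common library total). RNA sequencing was done on 1 control library, with the genotype WT, and 1 library with the genotype HERV-R Knockout. HERV-R is a human endogenous retrovirus, and the title of the study names its envelope gene env and tumorigenic traits of the cells. Both libraries carry the same treatment text, transfection of a Cas9 vector and a guide RNA vector followed by hygromycin selection of colonies. The vectors given to the control, the position of the guide, and whether colonies were pooled or grown as 1 clone were not given in the sources used here. In bulk RNA, fewer cells that make a transcript and less of it per cell cannot be told apart.

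In the extrinsic route to apoptosis, a ligand binds a death receptor at the cell surface, the receptor gathers the adaptor FADD, and FADD gathers caspase-8 and caspase-10, which cut and activate each other. CFLAR (c-FLIP) joins the same complex and can block that step. In the intrinsic route, cytochrome c released from mitochondria assembles with APAF1 and activates caspase-9. Both routes end in executioner caspases that cut cellular proteins. Caspase-6 is among these and is known for cutting lamin A, a protein of the nuclear envelope. Colorectal cancer lines are often studied for their response to TRAIL, the ligand of the receptors encoded by TNFRSF10A (DR4) and TNFRSF10B (DR5).

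The coding bases around the catalytic site are shown because they separate CFLAR from the caspases among these genes. Each line gives 27 bases of the coding strand, 5′ to 3′, read from GENCODE release 29 transcripts on GRCh38, and capitals mark the codon of the catalytic cysteine. In CFLAR the capitals mark the codon at the same place when the stretch is set without a gap on its first 3 residues, which are those of CASP8. CFLAR carries a tyrosine codon there.
CASP8: tttattcaggctTGTcagggggataac
CASP10: ttcatccaggccTGCcaaggtgaagag
CASP9: ttcatccaggccTGTggtggggagcag
CASP6: atcattcaggcaTGTcggggaaaccag
CFLAR: tttattcagaacTATgtggtgtcagag
The CASP8 stretch lies in exon 8 of transcript CASP8-205 (chr2:201285079-201285105, plus strand, codon 419). That of CASP10 lies in exon 9 of CASP10-202 (chr2:201209336-201209362, plus strand, codon 401). The CFLAR stretch lies in exon 9 of CFLAR-201 (chr2:201160704-201160730, plus strand, codon 360). The stretches of CASP9 (CASP9-210, chr1:15495448-15504632, minus strand, codon 287) and CASP6 (CASP6-201, chr4:109690992-109694533, minus strand, codon 163) each cross an exon junction, from exon 6 to 7 and from exon 5 to 6. CASP10, CASP9 and CASP6 each share 18 of the 27 bases with CASP8, and CFLAR shares 15. A count per gene sums all transcripts, so it does not separate the long form of CFLAR, which holds this stretch, from the short forms, which do not.

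The control library held 21881122 counts and the knockout-labelled library 16406308. ERV3-1, which encodes the HERV-R envelope, had 127 counts (5.80 CPM) in the control against 125 (7.62 CPM) in the knockout-labelled library, and the ratio was 1.31 (1.02 to 1.69), so its RNA was not lower there. Counts summed over the gene cannot show a small edit, and the direction of each difference given here relies on the label alone. Of 10 colon epithelial markers 8 were measured, among them EPCAM (701 and 749.8 CPM) and VIL1 (123 and 175 CPM), while KRT20 and CDX1 had 0 counts in both libraries. Of the measured ones, 3 were at least 2-fold lower (KRT8, KRT18 and KRT19) and 1 higher (CDX2). Among all compared genes 5.69% were lower and 6.78% higher by that size. The summed level of the list was 11713 and 5978 CPM, most of it from KRT8 (4138 and 1876 CPM) and KRT18 (4967 and 1741 CPM). EPCAM, CDH17, CDH1 and VIL1 had ratios of 1.07, 0.969, 0.824 and 1.42, so the list did not change as 1 set. The part of these marker differences in the values of the 8 genes was not tested. Markers of other cell types were near 0, with summed levels of 5.76 and 2.80 CPM for 8 fibroblast genes, 2.79 and 1.40 CPM for 9 blood and immune genes, and 1.19 and 1.34 CPM for 6 endothelial genes. COL1A2, DCN, PTPRC and CDH5, which define those types, had 0 counts in both libraries. The measured ones were PDGFRB, with 102 and 38 counts (4.66 and 2.32 CPM), and CD68, with 54 and 15 counts.

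Across the 8 genes, CASP6 differed most, at 2.22 times its control level in the knockout-labelled library. CASP8 and CASP10 had ratios of 1.51 and 1.43, and CASP9 one of 1.23 whose interval held 1 under 3 of 4 scalings. FAS and TNFRSF10A had ratios near 1, and TNFRSF10B and CFLAR ratios of 0.733 and 0.647. FAS, TNFRSF10A, CASP9 and CASP10 lay within the middle 50% of all compared genes. By a rule of 2-fold size, applied to the log2 ratio after adding 1 CPM to both values, 1 of the 8 was higher (CASP6), 0 were lower and 7 lay between. Among all compared genes, 6.78% were higher and 5.69% lower by the same rule. Higher genes made up 54.4% of those past it, and 40.6% with TMM (trimmed mean of M values) scaling, under which 0 of the 8 were higher. The 8 genes had a median log2 ratio of 0.21 and a range from -0.62 to 1.10. The median of all compared genes was 0.12, and their middle 50% lay between -0.28 and 0.50. With 1 library per group there was no replicate check and no test. Intervals are 95% and exact, and they cover counting error only. They do not tell how far other cultures would differ.

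**Figure D1:**
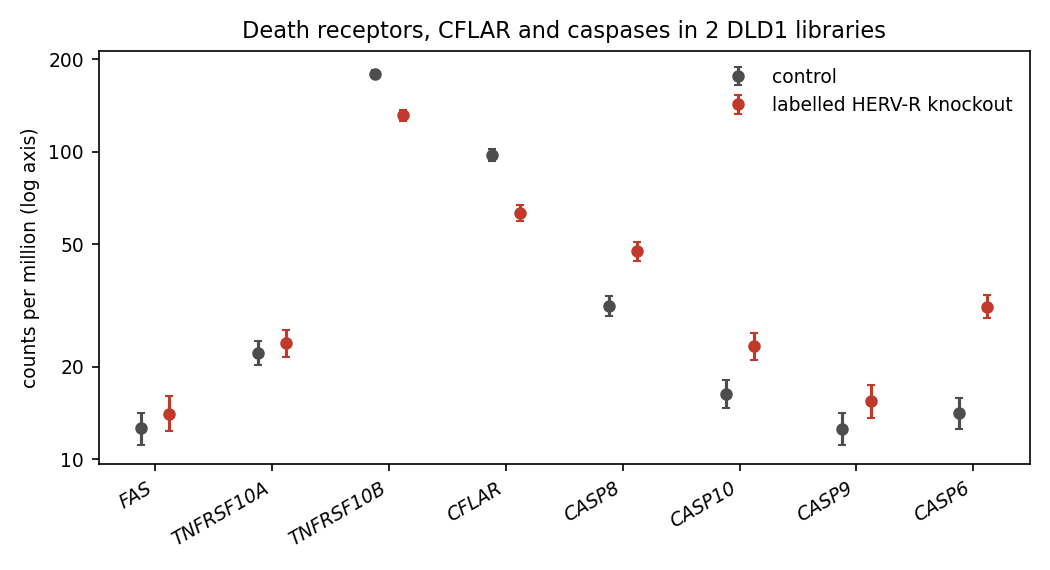
Level in CPM (log axis) of the 8 genes in the control (grey) and the library labelled HERV-R knockout (red), 1 library each, with exact 95% Poisson intervals of the count. The red points of CASP8, CASP10 and CASP6 lie above the grey ones with no overlap of intervals, and those of TNFRSF10B and CFLAR lie below.

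Among the receptors, TNFRSF10B had the most counts and the largest difference. TNFRSF10B, the TRAIL receptor DR5, had 3925 counts (179 CPM) in the control against 2156 (131 CPM) in the knockout-labelled library. The ratio, here and below with the control as denominator, was 0.733 (0.695 to 0.772), which stood at percentile 18.0 of the log2 ratios of all compared genes. TNFRSF10A, the TRAIL receptor DR4, had 484 counts (22.1 CPM) in the control against 391 (23.8 CPM) in the other library, a ratio of 1.08 (0.941 to 1.23). FAS, the receptor of FAS ligand, had 276 counts (12.6 CPM) and 231 (14.1 CPM), a ratio of 1.12 (0.933 to 1.33). Both intervals held 1, so no difference in FAS or TNFRSF10A was detectable at this depth. They stood at percentiles 52.1 and 48.9, next to the median of all genes. The sign of the TNFRSF10A difference turned with the scaling (log2 ratio -0.01 with TMM).

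TNFRSF10B thus differed in its balance with TNFRSF10A and FAS within a library, a measure that does not depend on how libraries are scaled. Both ratios given here have TNFRSF10B as denominator, so they are not independent. The ratios between libraries of FAS and TNFRSF10A, 1.12 and 1.08, lay close together. There were 0.123 counts of TNFRSF10A per count of TNFRSF10B in the control (0.112 to 0.136) and 0.181 in the knockout-labelled library (0.162 to 0.202). This ratio was 1.47 times as high in the knockout-labelled library (1.27 to 1.70). FAS stood at 0.0703 counts per count of TNFRSF10B in the control (0.0620 to 0.0795) and at 0.107 in the other library (0.0931 to 0.123), 1.52 times as high (1.26 to 1.84).

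The TRAIL receptor genes lie together on the short arm of chromosome 8, on the minus strand, TNFRSF10B at 23020133 to 23069179 and TNFRSF10A at 23190452 to 23225126 (GENCODE release 29, GRCh38), with 121272 bases between them. The decoy receptors TNFRSF10D and TNFRSF10C, which bind TRAIL without passing on a full death signal, are their relatives. TNFRSF10D was 2.64-fold lower in the knockout-labelled library (2.22 to 3.16), from 581 counts (26.6 CPM) to 165 (10.1 CPM). TNFRSF10C had 10 and 13 counts, under the minimum mean. The count of TNFRSF10D per count of TNFRSF10B was 0.148 in the control against 0.0765 in the knockout-labelled library, or 1.93-fold lower (1.61 to 2.33), a pair chosen after its values were seen. Reads from stretches that these related genes share can be assigned to another row, and the treatment of such reads was not given in the sources used here.

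CFLAR was the lowest of the 8 by ratio. CFLAR had 2138 counts (97.7 CPM) in the control against 1037 (63.2 CPM) in the knockout-labelled library, or 1.55-fold lower (1.43 to 1.67). It stood at percentile 12.2 of all compared genes and short of the 2-fold rule. The initiator caspases of the same complex lay on the other side. CASP8 had 691 counts (31.6 CPM) in the control against 780 (47.5 CPM) in the other library, a ratio of 1.51 (1.36 to 1.67) and percentile 79.2. CASP10, the close relative of CASP8, had 358 counts (16.4 CPM) and 383 (23.3 CPM), a ratio of 1.43 (1.23 to 1.65) and percentile 74.2.

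The count ratio of the inhibitor to the initiator was lower in the knockout-labelled library. There were 3.09 counts of CFLAR per count of CASP8 in the control (2.84 to 3.38) and 1.33 in the knockout-labelled library (1.21 to 1.46), 2.33-fold lower (2.05 to 2.65). Against CASP10 the figures were 5.97 (5.34 to 6.70) and 2.71 (2.41 to 3.05), 2.21-fold lower (1.87 to 2.60), a pair added after its values were seen. The balance of the 2 initiators differed little, with 1.93 counts of CASP8 per count of CASP10 in the control (1.70 to 2.20) and 2.04 in the other library (1.80 to 2.31). The change of that ratio, 1.06 (0.881 to 1.26), was within counting error. These are ratios of RNA counts, so their change between libraries can be read, while the ratio itself also depends on transcript length.

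**Figure D2:**
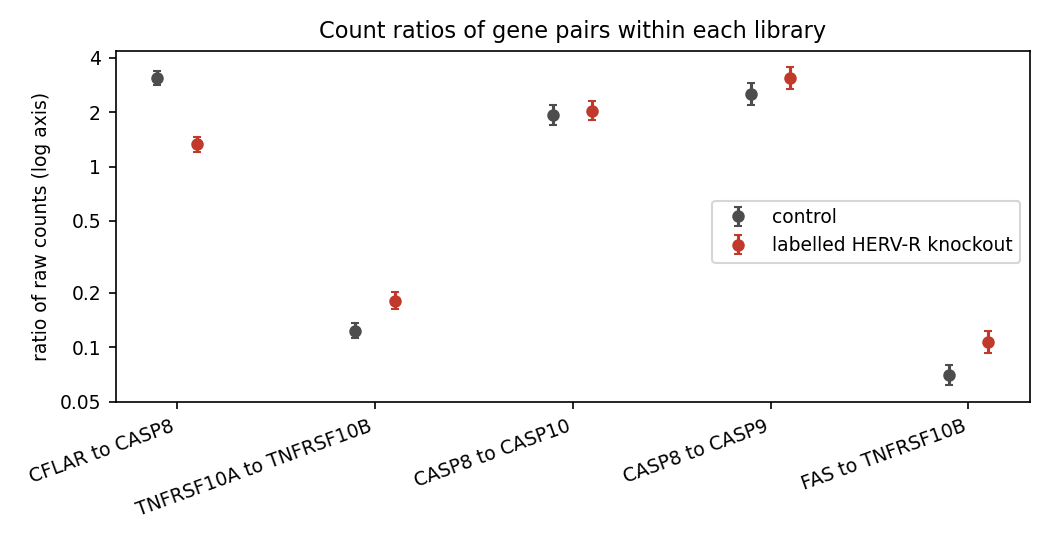
Ratio of raw counts (log axis) for 5 pairs of genes within the control (grey) and the library labelled HERV-R knockout (red), with exact 95% intervals. CFLAR per CASP8 is 3.09 in the control and 1.33 in the other library, while CASP8 per CASP10 is 1.93 and 2.04.

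CFLAR, CASP10 and CASP8 are neighbours on the plus strand of chromosome 2. CFLAR spans 201116104 to 201176687, CASP10 201182881 to 201229406 and CASP8 201233443 to 201287711 (GENCODE release 29, GRCh38). Only 6193 bases lie between CFLAR and CASP10 and 4036 between CASP10 and CASP8. Within this cluster the first gene was lower in the knockout-labelled library and the next 2 were higher, with intervals of the ratio that did not overlap (0.600 to 0.697 for CFLAR, 1.23 to 1.65 for CASP10).

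The apoptosome caspase and the executioner differed in size of change. CASP9 had 275 counts (12.6 CPM) in the control against 253 (15.4 CPM) in the knockout-labelled library, and the ratio was 1.23 (1.03 to 1.46) at percentile 60.9. With TMM the interval of CASP9 held 1 (0.947 to 1.34), so its difference depended on the scaling. The count of CASP8 per count of CASP9 was 2.51 in the control (2.18 to 2.90) and 3.08 in the other library (2.67 to 3.57), a change of 1.23 (1.0004 to 1.505), at the edge of counting error. CASP6 had 309 counts (14.1 CPM) in the control against 515 (31.4 CPM) in the knockout-labelled library, or 2.22-fold higher (1.93 to 2.57). It stood at percentile 95.01 and was the gene that passed the size rule. With TMM its log2 ratio was 0.98 and with a pseudocount of 5 CPM 0.93, so CASP6 sat at the edge of the rule.

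**Figure D3:**
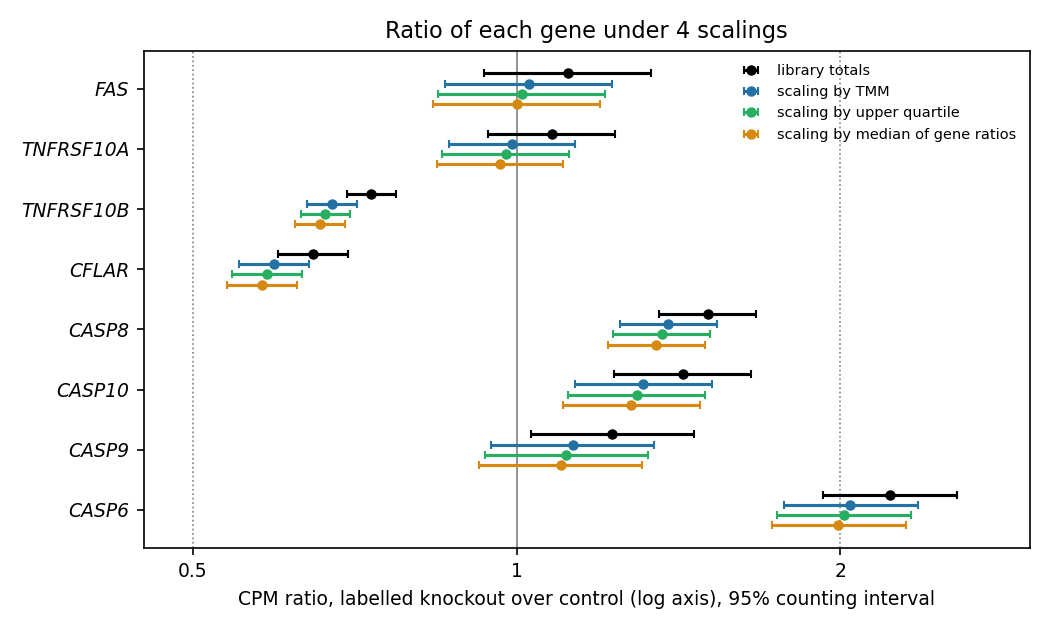
CPM ratio of the library labelled HERV-R knockout over the control (log axis) with exact 95% counting intervals, under library totals and 3 other scalings. The intervals of CASP6, CASP8 and CASP10 lie above 1 and those of TNFRSF10B and CFLAR below 1 under all 4, while that of CASP9 holds 1 under 3 of them.

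Another library scaling multiplies the ratios of all 8 genes by the same factor. With library totals the interval of the ratio lay above 1 for 4 genes (the caspases), below 1 for 2 (TNFRSF10B and CFLAR) and held 1 for 2. With each of the other 3 scalings these numbers were 3, 2 and 3, CASP9 being the gene that changed place. CFLAR was 0.647 of the control with library totals and 0.580 with the median of gene ratios, and CASP8 was 1.51 and 1.35.

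Levels can be set between genes only per length, and CPM per kilobase was taken over all exons of the protein-coding transcripts in GENCODE. In the control TNFRSF10B was the highest of the 8 at 43.3 CPM per kilobase. TNFRSF10A (8.15), CASP8 (8.02) and CASP6 (7.94 CPM per kilobase) followed with overlapping intervals, then FAS (4.89) and CFLAR (4.73), which also overlapped, and last CASP9 (2.73) and CASP10 (2.45), which overlapped too. In the knockout-labelled library TNFRSF10B was again the highest (31.7 CPM per kilobase), followed by CASP6 (17.7), CASP8 (12.1), TNFRSF10A (8.78) and FAS (5.45), none overlapping its neighbour. CASP10 (3.49), CASP9 (3.35) and CFLAR (3.06 CPM per kilobase) were last with intervals that overlapped. So CASP6 and CASP8 stood clear of TNFRSF10A in the knockout-labelled library and level with it in the control. The place of CFLAR rests on the length used: over its longest transcript (14672 bases in place of 20637) it had 6.66 and 4.31 CPM per kilobase. By that length it stood above FAS in the control (4.92). In the knockout-labelled library CFLAR was then no longer last but stood above CASP10 (3.94) and CASP9 (3.46). Its interval overlapped that of CASP10. By that length CASP8 had 10.8 CPM per kilobase in the control, above TNFRSF10A at 8.15, so their level standing rests on the length too.

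Some of the genes overlap others on the opposite strand, and the use of strand in counting was not given in the sources used here, although the library kit marks strand. FAS (chromosome 10, 88990582 to 89015785, plus strand) shares 758 bases with ACTA2, which had 14.5 CPM in the control against 5.79 CPM in the knockout-labelled library. CASP6 (chromosome 4, 109688622 to 109703583, minus strand) shares 105 bases with MCUB, at 52.8 and 43.2 CPM. TNFRSF10B shares 67 bases with RHOBTB2, at 22.7 and 24.2 CPM. Inside CFLAR lies the pseudogene IMPDH1P10 with 47 and 45 counts. CFLAR-AS1, which shares 17546 bases with CFLAR, had 1 count in each library. The part of these overlaps in the values was not tested.

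Of 63 other genes of the pathway in 8 lists, 44 were measured, of which 4 passed the rule upward, 4 downward and 36 not at all. Their median log2 ratio was 0.21. These are 9.09% in each direction, beside 6.78% higher and 5.69% lower among all compared genes. This even split was not kept with the other scalings: 1 was higher and 5 lower with TMM, and 1 higher and 6 lower with either other scaling. Among all compared genes 4.75% were higher and 6.95% lower with TMM. These shares were 4.54% and 7.25% with the upper quartile, and 4.30% and 7.47% with the median of gene ratios. The ligands of the 3 receptors were barely detected: TNFSF10 (TRAIL) had 13 and 3 counts, FASLG 1 and 3. TNF, the ligand of TNFRSF1A, had 0 counts in both, which allows up to 0.137 CPM in the control against 0.183 CPM in the knockout-labelled library. Of the ligands, 2 of 5 were measured and 1 was lower, TNFSF12 (TWEAK), 2.76-fold (2.31 to 3.30), from 596 to 162 counts. TNFSF15 had 54.2 and 29.1 CPM.

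Of 9 genes in the list of other death and decoy receptors, which also holds the TWEAK receptor TNFRSF12A, 6 were measured. Of these, 3 were lower, 0 higher and 3 between, beside 5.69% lower and 6.78% higher among all compared genes. All 6 had a log2 ratio below 0 (median -0.72). Besides TNFRSF10D, the lower ones were TNFRSF12A, the receptor of TWEAK, 2.16-fold lower (1.99 to 2.35), and TNFRSF21 (DR6), 2.02-fold lower (1.91 to 2.13) and just past the rule (log2 ratio -1.01). TNFRSF1A, the main TNF receptor, had 102 and 89.97 CPM. The interval of EDAR held 1 (0.692 to 1.17). TNFRSF6B, a soluble decoy for FAS ligand, was under the minimum mean and went the other way, with 3 and 13 counts, a ratio of 5.78 (1.59 to 31.6).

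Of 10 measured adaptors and regulators of the receptor complex 0 passed the rule, beside 6.78% higher and 5.69% lower among all compared genes. A log2 ratio above 0 was found for 8 (median 0.45), or 7 with each other scaling, ITCH being the one that turned. The median of all compared genes was 0.12, so 0 was not their midpoint with library totals. FADD, the adaptor that binds CASP8, had 994 counts (45.4 CPM) in the control against 903 (55.0 CPM) in the other library. CFLAR per count of FADD was 1.87-fold lower in the knockout-labelled library (1.66 to 2.11), and CASP8 per count of FADD was 1.24 times as high (1.08 to 1.43), pairs chosen after their values were seen. The most abundant of this list were FAF1 (127 and 115 CPM) and ITCH, a ubiquitin ligase known to target CFLAR protein (89.3 and 95.5 CPM).

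**Figure D4:**
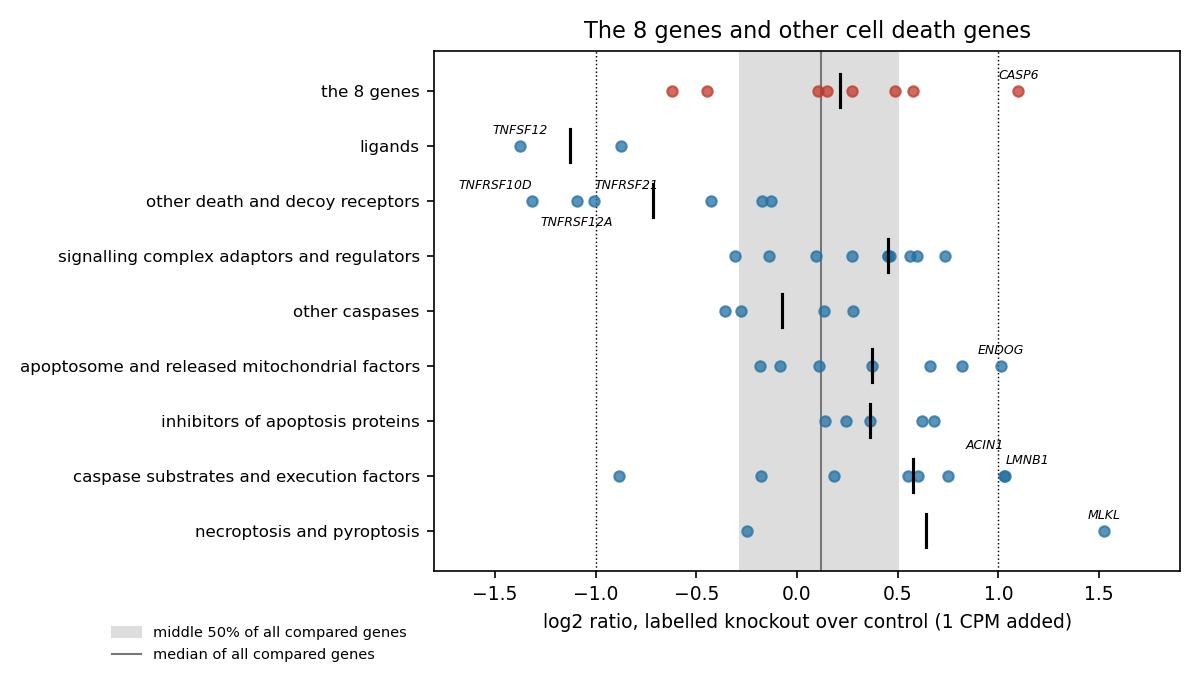
The log2 ratio of the library labelled HERV-R knockout over the control with 1 CPM added, for the 8 genes (red) and the measured genes of 8 lists (blue), with black bars at each median. Dotted lines mark the size rule of -1 and 1. The grey band is the middle 50% of all compared genes (-0.28 to 0.50) and the grey line their median (0.12). The 6 measured genes of the death and decoy receptor list lie below 0 and CASP6 past the upper line.

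The lists next to CASP9 and CASP6 had medians above that of all compared genes (0.12). By the 2-fold rule 6.78% of all compared genes were higher and 5.69% lower. Of 7 apoptosome and mitochondrial factors 1 was higher, the nuclease ENDOG (5.30 and 11.7 CPM, 2.21-fold, 1.74 to 2.80), and 6 lay between (median 0.37). APAF1, the partner of CASP9, had 43.2 and 40.7 CPM, and CYCS (cytochrome c) 269.5 and 427 CPM. AIFM1 had 69.4 and 123 CPM. Of 5 inhibitors of apoptosis proteins 0 passed and 5 lay above 0 (median 0.36; 4 with upper quartile or median-ratio scaling), with BIRC5 (81.5 and 131 CPM) and BIRC2 (87.0 and 112 CPM) the most abundant.

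Among all compared genes 6.78% were higher and 5.69% lower by the 2-fold rule. Of 8 caspase substrates and execution factors 2 were higher, 0 lower and 6 between (median 0.58). The higher ones were LMNB1 (lamin B1), 2.06-fold (1.95 to 2.17), and ACIN1 (acinus, a nuclear protein that caspases cut), 2.05-fold (1.94 to 2.16). LMNA, the lamin that caspase-6 cuts, went the other way without passing the rule, with 971 CPM in the control against 526 CPM in the knockout-labelled library. PARP1, a substrate of executioner caspases, had 306 and 464 CPM. With TMM, ENDOG, LMNB1 and ACIN1 lost the rule and LMNA passed it on the lower side.

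Of the other caspases 4 of 8 were measured and 0 passed (median -0.07), beside 6.78% higher and 5.69% lower among all compared genes. The measured caspases included CASP2 at 84.8 and 93.0 CPM and CASP4 at 51.96 and 40.4 CPM. In the necroptosis and pyroptosis list 2 of 7 were measured. MLKL, the pore-forming effector of necroptosis, was 3.17-fold higher (2.59 to 3.90), from 138 to 328 counts, while RIPK3, the kinase that activates it, had 0 counts in both libraries. GSDMD had 4.52 and 3.66 CPM.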

How the data were processed

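RNA selection, the counting program, its annotation, its use of strand and read filters were not given in the sources used here. TopHat, a spliced read aligner, and the build GRCh38 are named without a role, per the submitters' processing notes. The authors deposited raw counts per gene symbol in 1 table of 58173 rows per library. Summing rows that share a symbol gave 52402 symbols, and each of the 8 genes stood on 1 row. Counts were divided by the library total to give CPM. The comparison was limited to genes whose mean over both libraries reached 1 CPM. The log2 ratio was taken after adding 1 CPM, which understates changes of low genes. Folds are CPM ratios without it, with Clopper-Pearson intervals given the summed count. Ratios of 2 genes within a library, and their change, have exact conditional intervals. PCR duplicates are not independent molecules, so intervals may be too narrow. For a gene with 0 counts the upper limit is the CPM of 3 counts. The scripts were tested on simulated data.

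The 8 genes, the 8 pathway lists and the markers were chosen with earlier results of these data known. Named from the lists were genes past the rule and the 2 most abundant measured genes of each list, and others (such as FADD, CASP4, APAF1, TNFSF10, FASLG, TNF, TNFRSF10C and RIPK3) were chosen after their values were seen. Alternatives were 3 scalings (TMM, upper quartile and median of gene ratios, edgeR 4.0.16 in R 4.3.3), pseudocounts of 0.1 and 5 CPM, no filter or a minimum of 5 CPM, and size rules of 1.5-fold and 3-fold. The longest transcript as length was chosen after seeing the data. Python 3.11.15 with scipy 1.17.1 was used. Some values of genes in the lists are not reported here.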

Additional observations from a re-analysis of the deposited data

How the results depend on the processing

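The number of the 8 genes that were at least 2-fold higher was 1 with library totals. It was 0 with each of the 3 other scalings, 0 with a pseudocount of 5 CPM and 0 with a 3-fold rule. The number lower was 0 and became 1 (CFLAR) with a 1.5-fold rule. Of the pathway genes, 4 were higher, which became 1 with each other scaling (MLKL), 2 with a pseudocount of 5 CPM, 12 with a 1.5-fold rule and 0 with a 3-fold rule. Pathway genes lower were 4, which became 5 with TMM, 6 with the upper quartile, 6 with the median of gene ratios, 3 with a pseudocount of 5 CPM, 6 with a 1.5-fold rule and 0 with a 3-fold rule. With library totals and the 2-fold rule, 6.78% of all compared genes were higher and 5.69% lower. With a 1.5-fold rule, 20.3% of all compared genes were higher and 13.2% lower. These shares were 3.37% and 2.93% with a pseudocount of 5 CPM, and 0.933% and 1.81% with a 3-fold rule. At such shares, few or no genes past the rule is what sets of this size would give. TMM, upper quartile and median-ratio scaling shift the median of all genes by -0.11, -0.13 and -0.15, and higher genes then make up 40.6%, 38.5% and 36.5% of those past the rule, in place of 54.4%. Over 7 alternatives the log2 ratio ran from 0.93 to 1.15 for CASP6, 0.42 to 0.59 for CASP8, 0.34 to 0.51 for CASP10, 0.13 to 0.29 for CASP9, -0.60 to -0.43 for TNFRSF10B, -0.78 to -0.59 for CFLAR and -0.05 to 0.11 for TNFRSF10A. The alternatives of no filter and a minimum of 5 CPM could not change these values, since all 8 genes had means above 5 CPM. Taking the row with the most counts per symbol could not change CFLAR per CASP8 (0.430), since both genes stand on 1 row. No paired analysis was possible because each group has 1 library and no test was made. For FAS and CASP9 the counts limit what can be seen: their 95% intervals span 0.933 to 1.33 and 1.03 to 1.46.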

Other observations

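Genes of the TNF receptor superfamily with numbered symbols, TNFRSF and a number with or without a letter, were looked at after the values had been seen. Members with other symbols, such as FAS and EDAR, were left out, so this is a part of the family. Of 21 numbered symbols 11 were measured. In the knockout-labelled library 1 of these was at least 2-fold higher, 4 were lower and 6 lay between. Among all compared genes 6.78% were higher and 5.69% lower. The median log2 ratio of the 11 was -0.43, beside 0.12 for all compared genes. Of the 4 lower ones, TNFRSF10D, TNFRSF12A and TNFRSF21 were already given above. Among the lower genes not described so far was TNFRSF1B, the second receptor of TNF, with 1132 counts (51.7 CPM) in the control against 347 (21.2 CPM) in the knockout-labelled library, or 2.45-fold lower (2.17 to 2.77). The higher gene was TNFRSF19 (TROY), a receptor known as a WNT target of intestinal stem cells, with 347 counts (15.9 CPM) and 668 (40.7 CPM), 2.57-fold higher (2.25 to 2.93). TNFRSF11A, the receptor RANK, had 113 and 117 counts, a ratio of 1.38 (1.06 to 1.80).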
